A study of Mus musculus with 2 samples.

Results

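The genes described here are 10 interferon-induced GTPases of the mouse: the guanylate-binding proteins *Gbp2*, *Gbp3*, *Gbp4*, *Gbp5*, *Gbp6*, *Gbp7* and *Gbp9*, and the immunity-related GTPases *Iigp1*, *Igtp* and *Irgm1*. They were 10 of the 27031 gene columns of a single-cell table. They were chosen from the counts of these same cells, with their levels in the cell types and in both groups already known, so every value is a description and nothing about the set was tested.

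Female C57BL/6 mice aged 6 to 8 weeks carried MC38 tumors, a mouse colorectal cancer line placed under the skin. They were given telmisartan, an angiotensin II receptor blocker, at 5 mg/kg by oral gavage each day from implantation, or vehicle (control), and tumors were taken on day 13. Live CD45+ leukocytes were sorted, with 5 mice pooled per group, and both pools were marked with Sample Tags and loaded on 1 BD Rhapsody capture. With 1 pool per group there was no replicate, so intervals are 95% intervals for counting error only and no difference between groups was tested.

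Both GTPase families are switched on by interferon-gamma, in part through IRF1, and less strongly by type I interferon. Guanylate-binding proteins gather on vacuoles and bacteria in the cytosol, where they help to break them open and to start inflammasome signaling. Immunity-related GTPases split into effectors that load onto pathogen vacuoles and regulators that sit on the cell's own membranes and hold the effectors inactive, and in tumors both families are read as a trace of interferon exposure.

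The table held 20726 cells with 107214449 unique molecular identifiers (UMIs), and the same 20726 barcodes were listed in the table of tag reads. A tag call was made for 8738 control and 10222 telmisartan cells. After limits on genes and mitochondrial share and removal of likely doublets, 4535 control cells (41591125 UMIs in all) and 4434 telmisartan cells (30921742) remained. Median depth was 8689 UMIs per control cell and 6357.5 per telmisartan cell, so levels are given as CPM, the UMIs of a gene per 1000000 UMIs of the summed cells.

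T-like, dendritic-like and neutrophil-like clusters were named from raised marker genes. The macrophage-like name was given where no other type had 3 raised markers and at least 3 macrophage or monocyte markers were detected, which they were in every cluster. Macrophage-like cells numbered 3263 in control and 2670 in telmisartan, dendritic-like cells 367 and 299, T-like cells 72 and 114, and neutrophil-like cells 47 and 24. In macrophage-like cells 11 of 11 macrophage or monocyte markers were detected, summing to 19224 CPM in control and 20646 CPM in telmisartan with *Lyz2* the most abundant, and 4 tumor or epithelial markers summed to 1.17 and 0.683 CPM. Cluster 4, led by *Slfn4*, *Isg15* and *Irf7*, and cluster 5, led by *Hmox1*, *Cxcl3* and *Gpnmb*, also held 11 of 11 of these markers but stayed unnamed and are given by number. Cluster 4 made up 9.35% of control and 18.3% of telmisartan cells, and cluster 5 made up 7.98% and 11.6%. Leaving them out of the macrophage-like class was settled after their levels and sizes had been seen.

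In macrophage-like cells the 10 GTPases together were lower in the telmisartan group, by less than 1.5-fold. Their sum was 784 CPM (interval 775 to 794) in control and 537 CPM (527 to 546) in telmisartan, a log2 ratio of -0.55 (-0.58 to -0.52). The sum was lower in telmisartan and the intervals were apart. *Gbp2*, *Gbp4*, *Gbp5* and *Gbp7* were more than 1.5-fold lower, which is 4 of 10 members. Over all 10834 genes with at least 100 UMIs in these cells, 2.40% were past 1.5-fold lower and 3.85% past 1.5-fold higher, and since the members were chosen with these values known nothing is read from that share. The median log2 ratio of the members was -0.44, with -0.04 over all these genes. This direction of the sum was not kept when each subcluster of the class was given the same weight in both groups, which is described further on. On that weighting the direction was also not kept for *Gbp2*, *Gbp3*, *Gbp6*, *Gbp9*, *Iigp1* and *Igtp*.

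*Gbp2*, a guanylate-binding protein that is recruited to bacterial vacuoles and helps caspase-11 meet lipopolysaccharide, stood at 275 CPM (270 to 281) in control macrophage-like cells and 169 CPM (163 to 174) in telmisartan ones. It was the lower in telmisartan with intervals apart, at a log2 ratio of -0.71 (-0.76 to -0.65). *Gbp5*, linked to NLRP3 inflammasome assembly, was at 45.9 CPM (43.6 to 48.2) and 24.1 CPM (22.1 to 26.2), a log2 ratio of -0.93 (-1.07 to -0.79). For *Gbp7*, linked to assembly of the phagocyte oxidase, the levels were 133 CPM (130 to 137) and 85.7 CPM (82.0 to 89.5), a log2 ratio of -0.64 (-0.71 to -0.56). Both were thus lower in telmisartan beyond counting error. *Gbp3*, the remaining member of this block on chromosome 3, was at 44.2 and 33.5 CPM, a smaller difference (log2 ratio -0.40, -0.53 to -0.27).

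Among the guanylate-binding proteins of chromosome 5, *Gbp4* was at 45.4 CPM in control and 23.0 CPM in telmisartan macrophage-like cells, with intervals apart. Its log2 ratio was -0.98 (-1.13 to -0.84), which overlaps with the interval of *Gbp5*. *Gbp6* was at 22.7 and 17.1 CPM (log2 ratio -0.41, -0.59 to -0.23). *Gbp9* was at 23.6 CPM (22.0 to 25.3) and 20.1 CPM (18.3 to 22.0), where the intervals touched (log2 ratio -0.24, -0.40 to -0.07). Values of these 3 genes are uncertain, because *Gbp4* and *Gbp9* overlap each other and *Gbp8* on the same strand and *Gbp6* shares most of its transcript sequence with another gene.

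None of the immunity-related GTPases was past 1.5-fold in this class. *Iigp1*, an effector that coats and disrupts the vacuole of *Toxoplasma gondii*, was at 105 CPM (102 to 109) in control and 76.1 CPM (72.6 to 79.7) in telmisartan, a log2 ratio of -0.47 (-0.55 to -0.39). With each subcluster at the same weight in both groups, the log2 ratio of *Iigp1* was 0.31. *Igtp*, a regulator on endoplasmic reticulum membranes, was at 42.4 CPM (40.2 to 44.6) and 38.2 CPM (35.8 to 40.8), with overlapping intervals and a log2 ratio of -0.15 (-0.27 to -0.03). *Irgm1*, a regulator found on Golgi and lysosomal membranes, was at 46.1 CPM (43.9 to 48.4) and 50.4 CPM (47.5 to 53.3). It was the member on the higher side in telmisartan, with overlapping intervals and a log2 ratio of 0.13 (0.02 to 0.24).

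**Figure D1:**
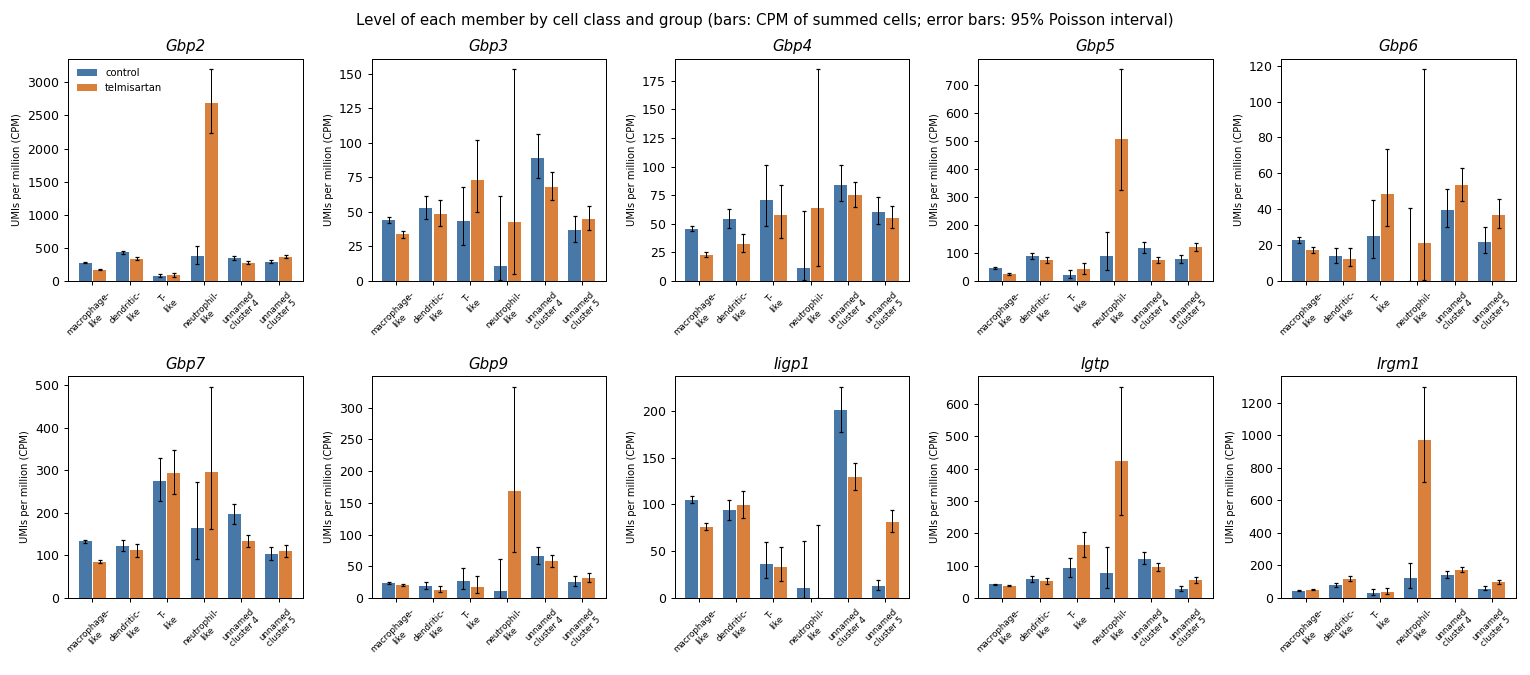
Level of each of the 10 members in CPM (y axis, from 0) in 6 sets of cells (x axis) for control and telmisartan; bars are the CPM of summed cells and error bars 95% Poisson intervals. *Gbp2* stood at 275 against 169 CPM in macrophage-like cells, and the high telmisartan bars of neutrophil-like cells rest on 24 cells.

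Thinned to 1000 UMIs per cell, 36.0% (34.4 to 37.7) of control and 27.6% (25.9 to 29.3) of telmisartan macrophage-like cells held at least 1 member. Unthinned shares were 80.4% and 72.8%, at median depths of 10310 and 8108.5 UMIs, and thinning left out 0 control cells and 1 telmisartan cell. A thinned cell held on average 0.605 different members in control and 0.408 in telmisartan. Cells with at least 5 members after thinning were 1.01% and 0.562%. *Gbp2* itself was seen in 16.7% (15.4 to 18.0) and 9.97% (8.86 to 11.2) of thinned cells, or 47.0% and 35.2% unthinned. *Irgm1* was seen in 4.75% (4.05 to 5.54) and 4.91% (4.12 to 5.80) of thinned cells, where the intervals overlapped, and in 25.7% and 22.7% unthinned.

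The macrophage-like cells were clustered again without any gene of either GTPase family, which gave 6 subclusters, none of them given a cell type name. Their leading genes were *Cxcl3*, *Slpi* and *Inhba* in subcluster 1, *Ly6i*, *Cxcl9* and *Ciita* in subcluster 2, *Pmp22*, *Serpinb6a* and *Folr2* in subcluster 3, the cell cycle genes *Ccna2* and *Hmmr* in subcluster 4, the replication genes *Ung* and *Cdca7* in subcluster 5, and *Hkdc1* and *Pde4c* in subcluster 6. Subcluster 2 held the most control cells (1311 of 3263) and subcluster 1 the most telmisartan cells (1148 of 2670). Several leading genes, *Cxcl9* and *Ciita* among them, vary with the members and differed between the groups, so these sizes are given as weights and not as a result.

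All 10 members had their highest level in subcluster 2, in control and in telmisartan. Subcluster 6 held 5 control and 68 telmisartan cells, and its wide intervals overlapped those of subcluster 2 for all members but *Gbp2*, *Gbp7* and *Iigp1* in control, and for *Gbp9* in telmisartan. The summed members reached 1294 CPM in control and 1714 CPM in telmisartan cells of subcluster 2. In subcluster 1 the same sum was 247 and 280 CPM, the lowest level of the 6 in both groups. Subcluster 2 supplied 58.3% of the members' UMIs from 35.4% of the class's UMIs in control, and 34.8% from 10.9% in telmisartan. This splitting by subcluster UMIs was added after the data had been seen.

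**Figure D2:**
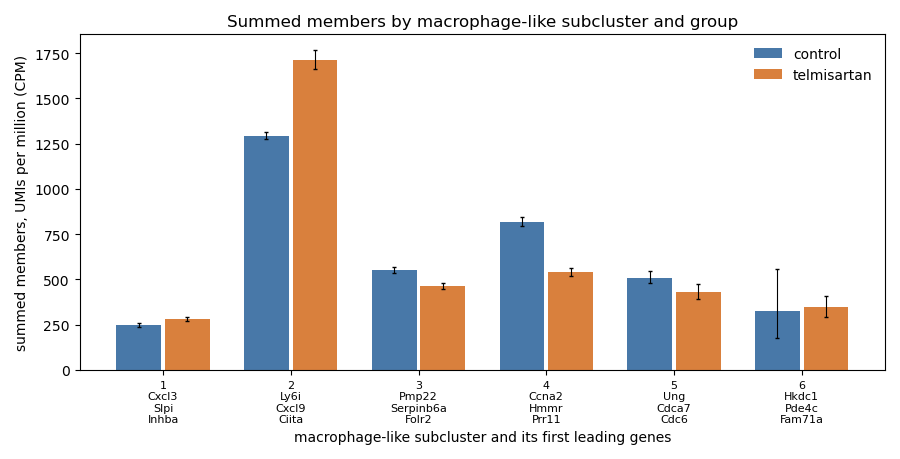
Summed level of the 10 members in CPM (y axis, from 0) in 6 macrophage-like subclusters (x axis, with their first leading genes) for control and telmisartan; error bars are 95% Poisson intervals. Subcluster 2 was highest in both groups, at 1294 and 1714 CPM, and subcluster 4 was lower in telmisartan, at 818 and 542 CPM.

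Within subclusters the ratio between groups did not have 1 direction. In subcluster 2 the sum was higher in telmisartan, at a log2 ratio of 0.41 (0.36 to 0.45), and *Iigp1* and *Irgm1* were past 1.5-fold higher, 2 of 10 members with 3.15% of 8370 genes past higher and 4.28% past lower. *Irgm1* was at 73.2 CPM in control and 154 CPM in telmisartan (log2 ratio 1.07, 0.90 to 1.24). For *Iigp1* the levels were 176 and 284 CPM (log2 ratio 0.69, 0.57 to 0.81). *Gbp2*, lower in telmisartan over the whole class, was higher in telmisartan within subcluster 2, at 493 and 627 CPM (log2 ratio 0.35, 0.27 to 0.43). *Gbp7*, at 184 and 181 CPM, was close to even there, and its interval spanned 0 (log2 ratio -0.03, -0.18 to 0.12).

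Subcluster 1 held the members at low levels and had 5 of 10 past 1.5-fold higher in telmisartan (*Gbp3*, *Gbp6*, *Iigp1*, *Igtp* and *Irgm1*), with 7.09% of 8452 genes past higher and 3.01% past lower. *Iigp1* was at 6.36 CPM in control and 14.7 CPM in telmisartan (log2 ratio 1.21, 0.73 to 1.71), and *Irgm1* was at 13.8 and 28.1 CPM (log2 ratio 1.03, 0.70 to 1.37). *Gbp5* stood on the other side in the same cells, at 16.0 and 11.1 CPM (log2 ratio -0.53, -0.92 to -0.14).

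In subclusters 3 and 4 the sum was lower in telmisartan, though not each member was. The sum in subcluster 4, the cells led by cell cycle genes, was 818 CPM in control and 542 CPM in telmisartan (log2 ratio -0.59, -0.67 to -0.52). There *Gbp2*, *Gbp4*, *Gbp5*, *Gbp6* and *Gbp7* were past 1.5-fold lower, 5 of 10 members with 2.79% of 7842 genes past lower and 2.83% past higher. *Gbp5* was at 46.6 and 22.4 CPM (log2 ratio -1.06, -1.42 to -0.70), and 1 telmisartan cell held 26.1% of its UMIs in that group. *Irgm1* in these cells was close to even, and its interval spanned 0 (log2 ratio 0.10, -0.16 to 0.36). Subcluster 3 summed to 550 and 462 CPM (log2 ratio -0.25, -0.32 to -0.18), with *Gbp4*, *Gbp5* and *Gbp7* past 1.5-fold lower, 3 of 10 members with 4.61% of 8455 genes past lower and 4.29% past higher. Subcluster 5 summed to 510 and 431 CPM and subcluster 6 to 327 and 346 CPM, where few members had 100 UMIs.

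With each subcluster weighted by its share of the UMIs of both groups together, a calculation chosen after the data had been seen, the sum was 691 CPM in control and 739 CPM in telmisartan, a log2 ratio of 0.10 in place of -0.55. On this weighting *Irgm1* was at 40.9 and 68.0 CPM (log2 ratio 0.73) and *Gbp2* at 238 and 247 CPM (log2 ratio 0.05). Like *Gbp2*, 5 further members turned from lower to higher in telmisartan. They were *Igtp* (log2 ratio 0.37), *Iigp1* (0.31, at 91.1 and 113 CPM), *Gbp6* (0.22), *Gbp9* (0.12) and *Gbp3* (0.10). *Gbp4*, at 39.8 and 33.2 CPM, and *Gbp7*, at 123 and 102 CPM, were still lower in telmisartan (log2 ratios -0.26 and -0.27), while *Gbp5*, at 39.5 and 37.9 CPM, was close to even (log2 ratio -0.06). The subclusters rest partly on interferon-induced genes that vary with the members, so a difference in such genes between groups can also move cells from a subcluster to another, and this cannot be told apart from a difference within subclusters.

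**Figure D3:**
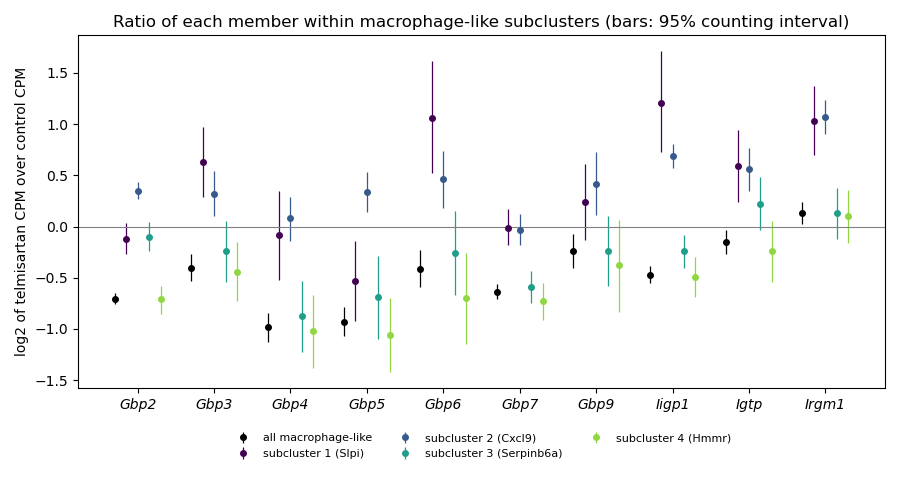
Log2 ratio of telmisartan CPM over control CPM (y axis) of each member (x axis) over all macrophage-like cells and within subclusters 1 to 4, with 95% counting intervals as bars and a line at 0. *Irgm1* was at 0.13 over the class and 1.07 in subcluster 2, and *Gbp2* was at -0.71 over the class, 0.35 in subcluster 2 and -0.71 in subcluster 4.

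Dendritic-like cells held the members at a higher summed level than macrophage-like cells in both groups, and the groups lay closer together. Not each member was higher: *Gbp6* was at 59.7% and 72.7% of its macrophage-like level, and *Gbp9* at 80.4% and 66.8%. *Gbp7* and *Iigp1* were also under it in control. Macrophage-like subcluster 2, at 1294 and 1714 CPM, stood above the dendritic-like class. The sum was 1010 CPM (974 to 1047) in control and 896 CPM (856 to 938) in telmisartan, a log2 ratio of -0.17 (-0.26 to -0.09), which became 0.02 with a mitochondrial limit of 10%. The class's 10 dendritic markers summed to 3268 CPM in control and 2729 CPM in telmisartan. That difference lay in the most abundant one, *Ccl22*, at 1673 and 1121 CPM, and the sum without it was not lower. Of 8 members with 100 UMIs only *Gbp4* was past 1.5-fold, at 54.0 and 32.5 CPM (log2 ratio -0.73, -1.16 to -0.31), with 3.33% of 5862 genes past lower and 3.57% past higher. *Irgm1* lay on the higher side, at 80.1 CPM (70.2 to 91.0) in control and 118 CPM (104 to 134) in telmisartan, with intervals apart (log2 ratio 0.56, 0.30 to 0.83). *Gbp2* was at 428 CPM (405 to 452) and 335 CPM (310 to 360), lower in telmisartan with intervals apart (log2 ratio -0.36, -0.49 to -0.22). *Gbp6* and *Gbp9* had fewer than 100 UMIs in these cells, and *Gbp6* was at 13.6 and 12.4 CPM.

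Within the dendritic-like class, cluster 7 (*Ccl17*, *Plet1*) held most cells in both groups, beside cluster 10 (*Ccr7*, *Fscn1*, *Il12b*) and cluster 11 (*Xcr1*, *Clec9a*). Values by cluster were computed after the data had been seen. *Gbp5* was highest in cluster 10, at 205 CPM (163 to 254) in control and 190 CPM (140 to 251) in telmisartan, against 74.7 and 59.6 CPM in cluster 7 and 56.2 and 50.1 CPM in cluster 11. *Gbp7* was lowest in cluster 10, at 34.6 and 15.5 CPM, against 140 and 131 CPM in cluster 7 and 124 and 105 CPM in cluster 11. The sum was at 1131 and 1007 CPM in cluster 7, and at 825 and 622 CPM in cluster 11. In cluster 10 it was at 657 and 767 CPM, and the interval of its log2 ratio spanned 0 (0.22, -0.05 to 0.49). In cluster 7 *Irgm1* was past 1.5-fold higher in telmisartan, at 86.6 and 136 CPM (log2 ratio 0.66, 0.35 to 0.96), and *Gbp4* past lower, at 65.7 and 40.2 CPM (log2 ratio -0.71, -1.19 to -0.25), where 5.22% of 4556 genes were past higher and 4.61% past lower. For *Irgm1* in cluster 10, 37 UMIs gave 37.1 and 85.2 CPM (log2 ratio 1.20, 0.19 to 2.25), and in cluster 11 it was at 88.1 and 79.7 CPM with overlapping intervals. *Gbp2*, lower in telmisartan over the dendritic-like class, was past 1.5-fold higher in cluster 10, at 227 and 345 CPM (log2 ratio 0.60, 0.16 to 1.04), where 8.69% of 1059 genes were past higher and 4.53% past lower.

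In T-like cells the summed members were at 699 CPM (623 to 782) in control and 852 CPM (769 to 941) in telmisartan, with overlapping intervals and a log2 ratio of 0.29 (0.07 to 0.51). That direction did not hold under other ways of averaging: the mean of UMIs per 10000 in each cell gave -0.11, and thinned cells gave -0.66. Only 2 of 10 members had 100 UMIs there. *Gbp7* was at 276 CPM (229 to 330) and 293 CPM (245 to 347), close to even. *Igtp* was at 91.4 CPM (65.3 to 124) and 163 CPM (128 to 205), higher in telmisartan with intervals apart (log2 ratio 0.83, 0.26 to 1.43), which makes 1 member past 1.5-fold where 8.83% of 1596 genes were past higher and 7.64% past lower. Shares of cells with *Igtp* did not show this difference, at 8.33% and 7.02% thinned to 500 UMIs and 31.9% and 32.5% unthinned. After thinning to 500 UMIs, 41.7% (30.2 to 53.9) of control and 28.9% of telmisartan T-like cells held a member (81.9% and 74.6% unthinned, at median depths of 3912 and 2960.5 UMIs). That share went against the CPM, so no order is read from it.

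Cluster 9 (*Cd8a*, *Prf1*, *Ifng*) held most T-like cells in both groups, beside cluster 13 (*Foxp3*, *Icos*) with 22 cells in each group. The sum was higher in cluster 13, at 1111 CPM in control and 1555 CPM in telmisartan, than in cluster 9, at 510 and 601 CPM, though not for each member: *Gbp4* in control was lower in cluster 13, and *Gbp9* in telmisartan had 0 UMIs there (up to 30.8 CPM) and 23.9 CPM in cluster 9. *Gbp7* was at 370 CPM (276 to 487) and 485 CPM (368 to 627) in cluster 13 and at 233 CPM (182 to 295) and 224 CPM (176 to 281) in cluster 9, where only the telmisartan intervals were apart. *Igtp* was at 203 CPM (135 to 294) and 351 CPM (253 to 475) in cluster 13, above the 40.0 and 95.6 CPM of cluster 9.

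UMIs of macrophage genes were found in the other classes too, where free RNA or uncalled doublets can leave them. *Lyz2*, a lysozyme gene of macrophages, reached 23.0% of its macrophage-like level in control T-like cells and 15.2% in telmisartan ones, and 14.1% and 11.9% in dendritic-like cells. The 11 macrophage or monocyte markers, all detected, summed to 6157 CPM in control and 4084 CPM in telmisartan T-like cells. In macrophage-like cells they summed to 19224 and 20646 CPM. Members in T-like cells stood above the share of *Lyz2*, with *Gbp7* at 207% and 342% of its macrophage-like level and *Igtp* at 216% and 426%. *Gbp2* in T-like cells, at 27.4% and 50.9%, and *Iigp1*, at 34.7% and 43.4%, were the nearest to it. In control, *Gbp2* lay below the share that the 11 markers together had of their macrophage-like sum. The part of free RNA and doublets in these values was not tested.

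Neutrophil-like cells were few. The sum of the members was 867 CPM (687 to 1081) in 47 control cells and 5183 CPM (4555 to 5875) in 24 telmisartan cells, a log2 ratio of 2.58 (2.21 to 2.96), and 1 telmisartan cell held 115 of the 245 UMIs, or 46.9%. *Gbp2*, the member with over 100 UMIs there, was at 373 CPM (258 to 522) and 2687 CPM (2240 to 3197), with 51.2% of its telmisartan UMIs in 1 cell. Of 192 genes with 100 UMIs in this class, 20.3% were past 1.5-fold higher and 12.0% past lower. The class's own markers were lower in telmisartan, with 7 neutrophil markers summing to 14678 and 9224 CPM. Without the cell with the most member UMIs in each group, a step chosen after the data had been seen, the log2 ratio of the sum was 1.94. *Irgm1* was at 121 CPM (60.3 to 216) and 973 CPM (713 to 1298). It had 57 UMIs in both groups together, with 52.2% of the telmisartan ones in 1 cell. *Gbp6* had 0 UMIs in control, which allows up to 40.5 CPM, and *Iigp1* had 0 in telmisartan, which allows up to 78.0 CPM. Normalization by trimmed means placed the ratios of this class lower by a log2 shift of -0.15.

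In CPM the sums of the unnamed clusters 4 and 5 lay on opposite sides. The leading genes of cluster 4 are in part interferon-induced, beside *Ly6c2*, *Plac8* and *Pde7b*. Its sum was 1405 CPM (1344 to 1469) in control and 1136 CPM (1094 to 1178) in telmisartan, lower with intervals apart (log2 ratio -0.31, -0.39 to -0.22). *Gbp5*, at 117 and 74.0 CPM (log2 ratio -0.67, -0.98 to -0.36), and *Iigp1*, at 201 and 129 CPM (log2 ratio -0.64, -0.87 to -0.40), were past 1.5-fold lower. That was 2 of 10 members, with 4.13% of 5060 genes past lower and 5.89% past higher. Thinned shares of cells did not show these differences. Thinned to 1000 UMIs, 43.0% of control and 44.3% of telmisartan cells held a member (59.9% and 62.6% unthinned). *Gbp5* was seen in 4.81% and 4.95% of thinned cells (17.7% and 12.7% unthinned), and *Iigp1* in 7.59% and 7.42% (16.0% and 16.2% unthinned). *Irgm1* was again on the higher side, at 143 CPM (124 to 164) and 174 CPM (158 to 191), with overlapping intervals.

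In cluster 5 the sum was 712 CPM (672 to 753) in control and 1003 CPM (963 to 1044) in telmisartan, higher with intervals apart (log2 ratio 0.49, 0.39 to 0.60). *Gbp5*, *Gbp6*, *Iigp1*, *Igtp* and *Irgm1* were past 1.5-fold higher, 5 of 10 members with 6.86% of 4869 genes past higher and 3.08% past lower. *Iigp1* was at 12.9 CPM (8.11 to 19.6) from 22 UMIs in control and at 81.7 CPM (70.6 to 94.0) from 195 UMIs in telmisartan (log2 ratio 2.66, 2.02 to 3.37), with 14.4% of the latter in 1 cell. *Igtp* was at 27.6 and 56.1 CPM (log2 ratio 1.02, 0.53 to 1.53), and *Irgm1* at 58.2 and 99.7 CPM (log2 ratio 0.78, 0.43 to 1.13). Thinned to 1000 UMIs, 30.1% (25.3 to 35.2) of control and 33.4% (29.2 to 37.8) of telmisartan cells held a member (52.2% and 58.8% unthinned). *Iigp1* was seen in 1.73% (0.639 to 3.74) and 4.51% (2.85 to 6.75) of thinned cells. Thinned intervals of the groups overlapped for the sum and for each of these 5 members. With clusters 4 and 5 counted as macrophage-like, the sum of that class had a log2 ratio of -0.35 in place of -0.55.

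Across the 6 sets of cells the members had unlike orders. In control, cluster 4 had the highest level of every member but *Gbp2*, highest in dendritic-like cells, and *Gbp7*, highest in T-like cells. The cluster 4 interval overlapped that of T-like cells for *Gbp4* and *Gbp6* and of dendritic-like cells for *Gbp5*. It also overlapped that of neutrophil-like cells for *Gbp5*, *Gbp6*, *Gbp9* and *Irgm1*, and of cluster 5 for *Gbp4* and *Gbp6*. For *Gbp2* the dendritic-like interval overlapped that of neutrophil-like cells, and T-like cells were lowest and apart from the rest in both groups. For *Gbp7*, T-like cells overlapped with neutrophil-like cells in both groups. *Iigp1* was highest in cluster 4, apart from the rest in both groups. Macrophage-like and dendritic-like cells overlapped in control, and in telmisartan dendritic-like cells were above macrophage-like ones with intervals apart. T-like cells lay below both, and in control cluster 5 lay below T-like cells, also apart. For *Igtp* in control, cluster 4 and T-like cells overlapped at 122 and 91.4 CPM, as did neutrophil-like cells with both, and in telmisartan neutrophil-like cells were above T-like cells and T-like cells above cluster 4, each apart from the next. *Irgm1* in telmisartan ran from neutrophil-like cells through cluster 4, dendritic-like cells and cluster 5 to macrophage-like and T-like cells, with overlap between dendritic-like cells and cluster 5 and between the last 2 sets. The telmisartan neutrophil-like levels of *Igtp* and *Irgm1* rest on 24 cells, with 40.0% and 52.2% of their UMIs in 1 cell.

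The members lie in blocks of the mouse genome (build GRCm38). *Gbp5*, *Gbp7*, *Gbp3* and *Gbp2* lie on the forward strand of chromosome 3 within 144 kb, at chr3:142493978-142638008. *Gbp9*, *Gbp4* and *Gbp6* lie on the reverse strand of chromosome 5 within 216 kb, at chr5:105077630-105293698. *Irgm1*, at chr11:48861968-48871683 on the reverse strand, and *Igtp*, at chr11:58199556-58207591 on the forward strand, lie on chromosome 11, and *Iigp1* lies on chromosome 18, at chr18:60376027-60392634. Of the 31-letter words in its annotated transcripts, *Gbp6* shared 74.2% with another gene, *Gbp9* 18.3%, *Igtp* 15.9%, all with *Irgm2*, which it overlaps, *Gbp7* 14.7% and *Gbp4* 14.3%, so the values of these genes are less certain. The share was 2.20% for *Irgm1*, 3.05% for *Gbp5* and 4.85% for *Gbp2*.

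Interferon ligands were found mainly as *Ifng* in T-like cells. *Ifng*, which encodes interferon-gamma, was at 516 CPM (451 to 588) in control and 808 CPM (727 to 895) in telmisartan T-like cells, higher in telmisartan with intervals apart (log2 ratio 0.65, 0.40 to 0.89). The T cell markers of this class were also higher in telmisartan, with *Cd3d* at 299 and 458 CPM and 12 markers summing to 5325 and 6996 CPM, so the *Ifng* value is not read apart from them. In macrophage-like cells it was at 0.514 and 0.342 CPM. *Ifnb1* had 6 UMIs in macrophage-like cells of both groups together, and *Ifna4* and *Ifnl2* had 0 there, which allows up to 0.105 CPM in control and 0.158 CPM in telmisartan.

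Of 17 receptor and signal genes, all with 100 UMIs in macrophage-like cells, 1 was past 1.5-fold higher in telmisartan and 1 past lower, with a median log2 ratio of 0.05. Over all genes of this class 3.85% were past higher and 2.40% past lower, with a median of -0.04. The listed genes past 1.5-fold were *Irf7*, a transcription factor of the type I response, at a log2 ratio of 0.83, and *Ciita*, the activator of MHC class II genes, at 37.0 and 14.8 CPM (log2 ratio -1.32), both named after their values were seen. *Irf1*, which acts on these GTPase genes, was on the higher side at 151 and 200 CPM (log2 ratio 0.40, 0.34 to 0.46). The receptor chain *Ifngr1* was at 172 and 193 CPM.

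Other targets of interferon were counted in macrophage-like cells, without a test between lists. Of 6 genes typical of interferon-gamma, 5 had 100 UMIs and 3 were past 1.5-fold lower in telmisartan and 0 past higher, with a median log2 ratio of -0.61 (all genes: 2.40% lower, 3.85% higher). They were the chemokine *Cxcl9*, at 924 and 448 CPM (log2 ratio -1.04), *Serpina3g*, at 43.4 and 17.3 CPM (log2 ratio -1.33), and *Ccl5*, at 48.9 and 31.9 CPM (log2 ratio -0.61). Of 11 genes typical of type I interferon, 6 were past 1.5-fold higher and 0 past lower, with a median log2 ratio of 0.59 (all genes: 3.85% higher, 2.40% lower, median -0.04). Among them *Slfn4* was at 39.4 and 88.2 CPM (log2 ratio 1.16), *Oasl1* at 6.14 and 14.1 CPM (log2 ratio 1.19) and *Isg15* at 22.5 and 33.8 CPM (log2 ratio 0.59).

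Further genes of the GTPase families gave 9 of 11 in the table with 100 UMIs in macrophage-like cells, 3 of them past 1.5-fold lower (*Gbp10*, *Tgtp1* and *Tgtp2*) and 0 past higher, with a median log2 ratio of -0.40 (all genes: 2.40% lower, 3.85% higher). *Tgtp2* had a log2 ratio of -0.61, and *Ifi47* was even, at 70.5 and 70.1 CPM. Among 14 genes of proteins that act with these GTPases, in inflammasomes and in ATG8 conjugation, 2 were past 1.5-fold higher and 0 past lower (all genes: 3.85% and 2.40%), with a median log2 ratio of -0.04. They were *Nlrp3*, an inflammasome sensor, at 498 and 883 CPM (log2 ratio 0.82), and *Sqstm1*, an autophagy receptor, at 183 and 313 CPM (log2 ratio 0.78).

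From cell to cell the members varied together. Across 3263 control and 2670 telmisartan macrophage-like cells, the correlation of a member with the sum of the other 9 was highest for *Gbp5* in control (r = 0.660, and 0.566 in telmisartan) and for *Iigp1* in telmisartan (r = 0.598, and 0.621 in control). It was lowest for *Gbp9*, at 0.339 and 0.233. The genes outside the families and the lists whose pattern was most like the summed members were *Calhm6* (r = 0.556 in control and 0.479 in telmisartan), *Batf2* (0.525 and 0.445), *Ly6a* (0.498 and 0.438), *Fcgr4* (0.511 and 0.421), *AW112010*, *Samhd1*, *Ifi203*, *Acod1*, *Mndal* and *Ifi211*. Of the listed genes *Cxcl9*, *Cxcl10* and *Serpina3g* ranked among the first 5. Cells of a group share 1 library, and depth differs among them, so these values describe the cells and carry no test.

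Promoter windows of 300 bases, from 250 before to 50 after the transcript start, were matched in RefSeq (GRCm38.p6) for 6 of the 10 members, with 7 windows in all. *Gbp4*, *Gbp6* and *Gbp9* were not matched. *Iigp1* was left out of the search, so whether it has a matching window was not examined. The core of the interferon-stimulated response element, GAAANNGAA, and the gamma-activated site, TTCNNNGAA, were searched on both strands, the latter being its own reverse complement. The first was found in a window of all 6 matched members and in 8.56% of 32851 promoters. The second was found in *Gbp5*, *Gbp7* and *Igtp* and in 8.30% of promoters, and the pair in 1.07%. A match is a description of letters and not of a bound site. Shown are *Gbp2*, *Gbp5* and *Gbp7*, the matched members past 1.5-fold lower over the macrophage-like class, with *Igtp* and *Irgm1*, which were not. Capitals mark the matches, and those in *Irgm1* are a pair that overlap. Each is written 5′ to 3′ on the strand of its gene: *Gbp2* at chr3:142620413-142620712, *Gbp5* at chr3:142496684-142496983, *Gbp7* at chr3:142530086-142530385 and *Igtp* at chr11:58199306-58199605 on the forward strand, and *Irgm1* at chr11:48871371-48871670 on the reverse strand.
Gbp2: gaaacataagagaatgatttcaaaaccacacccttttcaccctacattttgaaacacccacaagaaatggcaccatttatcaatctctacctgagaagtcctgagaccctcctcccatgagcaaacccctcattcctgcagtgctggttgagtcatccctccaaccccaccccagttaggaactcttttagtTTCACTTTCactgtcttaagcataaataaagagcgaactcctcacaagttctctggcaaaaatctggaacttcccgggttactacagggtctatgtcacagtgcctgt
Gbp5: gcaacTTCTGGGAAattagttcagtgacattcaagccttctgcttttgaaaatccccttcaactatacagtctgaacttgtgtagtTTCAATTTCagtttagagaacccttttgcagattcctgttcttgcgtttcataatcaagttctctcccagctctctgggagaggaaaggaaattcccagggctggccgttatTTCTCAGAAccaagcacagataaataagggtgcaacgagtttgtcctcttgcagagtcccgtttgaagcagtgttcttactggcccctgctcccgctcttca
Gbp7: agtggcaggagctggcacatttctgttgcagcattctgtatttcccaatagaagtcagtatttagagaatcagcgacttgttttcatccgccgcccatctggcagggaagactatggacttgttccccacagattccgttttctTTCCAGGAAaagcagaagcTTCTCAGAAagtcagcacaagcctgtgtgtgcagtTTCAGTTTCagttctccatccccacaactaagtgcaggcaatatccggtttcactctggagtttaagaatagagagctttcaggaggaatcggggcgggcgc
Igtp: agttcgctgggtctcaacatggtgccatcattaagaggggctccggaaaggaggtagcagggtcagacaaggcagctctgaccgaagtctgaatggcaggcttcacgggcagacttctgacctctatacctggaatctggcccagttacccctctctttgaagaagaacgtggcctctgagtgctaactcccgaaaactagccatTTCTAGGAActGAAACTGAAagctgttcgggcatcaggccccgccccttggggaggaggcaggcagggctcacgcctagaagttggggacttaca
Irgm1: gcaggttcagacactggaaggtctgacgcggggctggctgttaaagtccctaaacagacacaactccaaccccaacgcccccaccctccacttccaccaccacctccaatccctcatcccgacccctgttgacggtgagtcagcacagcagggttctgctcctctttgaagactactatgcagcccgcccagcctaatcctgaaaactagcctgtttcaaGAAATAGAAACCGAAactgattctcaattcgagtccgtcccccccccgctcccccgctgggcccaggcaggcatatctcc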

How the data were processed

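The deposited table held raw UMI counts per gene and cell and a table of Sample Tag read counts, which per the file headers the authors made with the BD Rhapsody WTA pipeline 1.11 on GRCm38 with GENCODE M19. Cells were given a group where at least 10 tag reads were present and at least 75% were on 1 tag, tag 1 for control and tag 2 for telmisartan; no tag reached that share in 1580 cells, and 186 cells had too few tag reads. Cells with 150 to 5000 genes and at most 20% mitochondrial UMIs were kept (58.1% of control and 47.3% of telmisartan calls, 9911 together). The automatic threshold of Scrublet (scanpy 1.11.5) marked 0 cells, so the 942 cells with the highest scores were removed, the 9.51% predicted from 8.67% of tag multiplets. Seurat 5.3.0 in R 4.3.3 clustered cells at resolution 0.5 and macrophage-like cells at 0.45, with 2000 variable genes that left out both GTPase families and 30 components. A cluster was named from at least 3 raised markers of a type; the macrophage-like name was given by default, where no other type had 3 raised and at least 3 macrophage or monocyte markers were detected, and the macrophage-like clusters had no raised marker of another type. A cluster stayed unnamed where its median UMI count was far under that of its own sample (a ratio under 1/3 in at least 1 group) without a marker of that name among its leading genes, or where its leading genes went against the name. Cluster 4 had a median of 2399 UMIs in control, where the group's was 8689 (ratio 0.276; 0.387 in telmisartan, which is not under the limit), and cluster 5 was led in part by the neutrophil marker Mmp8.

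UMIs were summed per class and group. CPM carry exact Poisson intervals, shares Clopper-Pearson intervals and log2 ratios exact conditional binomial intervals, all at 95%. Members were counted as past where the ratio was at least 1.5-fold and the gene had 100 UMIs. The members and the gene lists were chosen with earlier results of these data known. The rule for named genes takes all 10 members, counts for each list with values for up to 6 genes, those with the most UMIs, and the 10 genes most correlated with the summed members. Gbp11, Gm12250, Ifna2 and Ifnl3 were not analysed here. Normalization was also run with edgeR 4.0.16. Figures and sums used numpy 2.4.6, pandas 2.3.3, scipy 1.17.1 and matplotlib 3.10.9 in Python 3.11.15, and the code was tested on simulated data. Positions are from GENCODE M21. Alternatives were other tag, gene, mitochondrial and doublet limits, other resolutions and scalings, thinning, filters and folds.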

Additional observations from a re-analysis of the deposited data

Results flagged for a closer look

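Across the 4 named classes and clusters 4 and 5, subclusters not counted, the ratio of telmisartan to control lay past 1.5-fold in opposite directions for 3 members, which drew attention to them. Over all 6372 genes with 100 UMIs in more than 1 of these sets, 48 (0.753%) did so, a count added after the data had been seen. The members were chosen with earlier values known, so nothing is read from that share; these differences between cell sets were not tested. *Gbp2* had a log2 ratio of -0.71 in macrophage-like cells and 2.85 in neutrophil-like cells, where 1 of 24 telmisartan cells held 51.2% of its UMIs and 20.3% of 192 genes were past higher. *Gbp5* had a log2 ratio of -0.93 in macrophage-like cells and -0.67 in cluster 4, and 0.63 in cluster 5. *Iigp1* had a log2 ratio of -0.64 in cluster 4 and 2.66 in cluster 5, where control had 22 UMIs. Thinned shares of cluster 4 cells did not show the lower level, at 4.81% and 4.95% for *Gbp5* and 7.59% and 7.42% for *Iigp1*.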

How the results depend on the processing

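The log2 ratio of the summed members in macrophage-like cells was -0.55 and kept its sign in 19 of 23 alternatives. It was -0.58 with a tag share of 90%, -0.42 with a mitochondrial limit of 10%, -0.49 without doublet removal, -0.48 at resolution 0.8, -0.60 as mean UMIs per 10000, -0.84 unscaled, -0.63 thinned and, chosen after seeing the data, -0.35 with the unnamed clusters. By subcluster, from 1 to 6, it was 0.18, 0.41, -0.25, -0.59, -0.25 and 0.08, with a mean of -0.07, and 0.10 with the same subcluster weights in both groups (chosen after seeing the data), where *Gbp2* turned from -0.71 to 0.05 and *Gbp5* went from -0.93 to -0.06. In dendritic-like cells -0.17 became -0.41 with the 90% tag share, 0.02 with the 10% mitochondrial limit and -0.37 unscaled. In T-like cells the sign was kept in 9 of 14 alternatives: 0.29 became -0.03 with the 10% mitochondrial limit, 0.01 without doublet removal, -0.11 as mean UMIs per 10000, -0.32 unscaled and -0.66 thinned. In neutrophil-like cells 2.58 became 1.94 with the 90% tag share, 1.97 with 500 genes, 1.79 without doublet removal, 2.09 as mean UMIs per 10000, 1.68 thinned and 1.94 without the top cells. As a difference of mean ln(1 + UMIs per 10000), in log2 units, the values were -0.42, -0.19 and 1.93 in macrophage-like, T-like and neutrophil-like cells; this is no log2 ratio, so only its sign is compared. The cause of these shifts was not tested. Unscaled values follow the deeper control cells by construction, which shifts every gene of a class alike, and no direction is read from them. Clusters were named anew in each alternative, and with the 10% mitochondrial limit and at resolution 0.8 an interferon-led cluster joined the macrophage-like class.

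Counts of all genes past 1.5-fold moved with the filter, as more genes enter at 20 UMIs and at 1 UMI per group and fewer pass 2-fold. In macrophage-like cells 417 higher became 1082, 2720 and 105, and 260 lower became 691, 2003 and 43. In dendritic-like cells 209 higher became 640, 1566 and 42, and 195 lower became 951, 1810 and 19. In T-like cells 141 higher became 879, 2086 and 30, and 122 lower became 870, 2226 and 36. Each member's highest level in subcluster 2 held for 10 members at both neighboring resolutions. *Gbp4*, *Gbp5* and *Gbp7* kept their sign in macrophage-like cells in 16 of 16 alternatives, and *Irgm1* in 14, where the others were -0.16 unscaled, by construction, and -0.01 as a difference of mean logs; single subclusters are not counted there, and in subcluster 2 *Gbp4* was at 0.08 and *Gbp5* at 0.34.

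No paired analysis was possible because each group is 1 pool. The groups differ in pool, tag and depth as well as treatment, which cannot be told apart, and the spread between mice is unknown.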

Other observations

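Genes typical of type I interferon lay on the higher side of telmisartan in more cells than the macrophage-like ones. In dendritic-like cells 6 of the 11 had 100 UMIs and 6 were past 1.5-fold higher, with a median log2 ratio of 1.19 (all genes: 3.57% higher, 3.33% lower), and in cluster 5 the 6 with 100 UMIs were also past higher, with a median of 1.42 (all genes: 6.86% higher, 3.08% lower). In cluster 4, led in part by such genes, 2 of 11 were past higher and 1 past lower, with a median of -0.04 (all genes: 5.89% higher, 4.13% lower). None of the 11 had 100 UMIs in T-like cells. Genes of other lists past 1.5-fold higher there included *Ccl5*, at 386 CPM in control and 889 CPM in telmisartan (log2 ratio 1.20). *Irf1* was at 98.2 and 198 CPM (log2 ratio 1.01) and the GTPase *Ifi47* at 68.5 and 156 CPM (log2 ratio 1.19). In these cells 8.83% of 1596 genes were past higher and 7.64% past lower. The 12 T cell markers also summed higher in telmisartan, at 5325 and 6996 CPM, so these values are not read apart from them. These differences were not tested, and the lists were chosen with earlier results known.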
